A study of Mus musculus with 42 samples.

Results

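The 9 genes described here code for the CLK splicing kinases (Clk1, Clk2, Clk3 and Clk4), the LUC7-like proteins (Luc7l, Luc7l2 and Luc7l3), the formin binding protein FNBP4 (Fnbp4) and the RNA binding protein EWSR1 (Ewsr1). They are 9 of the 14296 genes in the files, and all 9 listed genes were found. They were chosen on the periodograms of these same libraries, because Clk1, Fnbp4 and Luc7l2 had a period near 24 h in both replicate courses. The others were added as relatives, except Ewsr1, a splicing-related gene that the authors had named from these data as both short-lived and cycling. Expression was measured by stranded sequencing of poly-A RNA in W9.5 mouse embryonic stem cells, a single established line, that differentiated into embryoid bodies after induction. The 2 biological replicate courses, A and B, were each sampled at 21 time points from 0 h, the undifferentiated cells, to 120 h in steps of 6 h, which gave 42 libraries and 2 per time point. Both courses were of the same line with no other treatment or genotype, so that time is the only factor between groups.

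CLK kinases phosphorylate SR proteins, a family of splicing factors rich in arginine and serine, and so change their place in the nucleus and their activity. CLK transcripts are themselves known to be kept in the nucleus with unspliced introns and to be spliced when kinase activity is low or after heat or other stress, which makes their steady level sensitive to splicing. The LUC7-like proteins are relatives of a yeast component of the U1 particle, which recognises the start of introns. Clk1 and Clk4 are the closest pair of the CLK family, and Luc7l and Luc7l2 of the LUC7-like family. EWSR1 is an RNA binding protein related to TAF15, and FNBP4 is a protein with WW domains whose part in these cells is less well described.

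In the GENCODE annotation (vM21, GRCm38) the genes lie on 7 chromosomes, with Clk4, Luc7l3 and Ewsr1 on chromosome 11 at 51261730 to 51281766, 94287890 to 94321988 and 5069689 to 5099266. Clk1 lies on chromosome 1 from 58410189 to 58424066, and Fnbp4 on chromosome 2 from 90745370 to 90781021. Clk2 is on chromosome 3 (89164795 to 89176921), Luc7l2 on chromosome 6 (38551334 to 38609470), Clk3 on chromosome 9 (57750624 to 57765860) and Luc7l on chromosome 17 (26252896 to 26285504). The annotation holds transcripts with a retained intron and transcripts marked for nonsense-mediated decay for 7 of the 9 genes, all but Fnbp4 and Ewsr1, which have 0 of either kind. Clk1 and Clk4 have the most, each with 7 transcripts with a retained intron among 13 and 14. Of the 13176 protein coding genes in the files, 22.1% have both kinds. A gene value sums the reads of these transcripts, so that spliced and intron-holding forms were not told apart.

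The promoters of the members were read from RefSeq (GRCm38.p6), which matched 7 of the 9 genes, all but Clk1 and Luc7l. The promoters of 4 genes are printed because the search for motifs turns on them: Fnbp4 and Luc7l2, which were chosen on their period, Clk2, the gene with the deepest single trough, and Clk4. Each is the 250 bases before the start site, 5′ to 3′ on the strand of the gene, and capitals mark matches on either strand to the searched motifs.
Fnbp4, chr2:90745308-90745557, plus strand: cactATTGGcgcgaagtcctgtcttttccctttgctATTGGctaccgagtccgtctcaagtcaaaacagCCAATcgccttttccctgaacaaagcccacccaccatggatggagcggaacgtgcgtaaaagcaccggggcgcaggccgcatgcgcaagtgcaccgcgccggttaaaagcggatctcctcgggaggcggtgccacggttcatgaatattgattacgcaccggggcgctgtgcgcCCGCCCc
Luc7l2, chr6:38555473-38555722, plus strand: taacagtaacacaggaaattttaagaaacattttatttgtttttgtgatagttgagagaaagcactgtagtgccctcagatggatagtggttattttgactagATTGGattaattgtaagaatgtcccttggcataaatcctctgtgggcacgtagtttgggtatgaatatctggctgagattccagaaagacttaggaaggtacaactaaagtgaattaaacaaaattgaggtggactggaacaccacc
Clk2, chr3:89164545-89164794, plus strand: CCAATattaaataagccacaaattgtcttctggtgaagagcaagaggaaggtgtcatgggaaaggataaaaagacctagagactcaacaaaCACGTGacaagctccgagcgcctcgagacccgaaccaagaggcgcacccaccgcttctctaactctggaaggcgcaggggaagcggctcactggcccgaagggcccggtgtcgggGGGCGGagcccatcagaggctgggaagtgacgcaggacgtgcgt
Clk4, chr11:51262864-51263113, plus strand: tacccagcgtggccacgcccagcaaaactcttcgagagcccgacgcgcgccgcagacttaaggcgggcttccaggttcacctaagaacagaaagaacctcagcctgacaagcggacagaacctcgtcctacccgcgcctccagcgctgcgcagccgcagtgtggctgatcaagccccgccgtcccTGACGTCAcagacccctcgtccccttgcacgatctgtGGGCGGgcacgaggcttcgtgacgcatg
The 7 motifs searched were the E-box CACGTG and the D-box TTATGTAA and ROR core AGGTCA of clock genes, the CRE TGACGTCA, the heat shock core GAANNTTC, the CCAAT box and the GC box GGGCGG. Fnbp4 holds 3 CCAAT boxes (capitals CCAAT, or ATTGG on the other strand), and Luc7l2 and Clk2 hold 1 each. A CCAAT box occurs in 33.9% of the 32851 promoter windows of this length and a GC box in 32.7%. The E-box of Clk2, found in 6.02% of promoters, and the CRE of Clk4, found in 1.55%, each stand in 1 of the 7 member promoters. Clk3 holds 2 GC boxes, Luc7l3 holds 3, and Ewsr1 holds 0 of the 7 motifs. The D-box (0.819% of promoters), the ROR core (14%) and the heat shock core (6.69%) are in 0 of the 7 windows. The window of Luc7l2 starts at an annotated start 4389 bases inside the outermost one and has 37.2% G and C, against a median of 52.4% over all promoters. These matches are letters in a window, and binding was not measured.

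The counted reads per library ranged from 10120972 to 51652434, with a median of 29692082, and the lowest count of a member in any library was 466 reads (Clk3), where counting error is small beside the spread between duplicates. Values are log2 CPM, the log2 of the read count of a gene relative to the scaled total of its library, and errors of single levels are the SD of the 2 libraries of a time point. The stem cell identity of the 0 h libraries was checked with 7 markers, which were all present and of which 6 were lower at 120 h (between 0 h and 6 h Klf4 fell by 1.31 and Zfp42 rose by 0.88 on the log2 scale, and Esrrb, at 0.60, did not pass the test). The summed level of 5 fibroblast markers, for feeder cells that could be left in the culture, was 4.60 and 4.81 log2 CPM at 0 h and 3.61 and 3.58 at 6 h. At 120 h it was 6.67 and 6.51, with Col1a2 higher by 7.92 and Col1a1 by 3.50 and Thy1 lower by 2.55 than at 0 h on the log2 scale. Their part in the levels below was not tested, and in RNA of whole cultures fewer cells of a type and less RNA per cell cannot be told apart. The duplicates of 96 h and 42 h differed most, with a median absolute difference over all genes of 0.41 and 0.27, followed by 72 h with 0.27. Values at 72 h and 96 h are therefore given for each course.

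Per kilobase of exon, Ewsr1 had the highest mean level of the 9 genes and Clk3 the lowest. In log2 CPM per kilobase the means over the 42 libraries were 6.53 for Ewsr1 and 5.31 for Luc7l3. Clk1, Fnbp4, Luc7l and Luc7l2 followed at 4.35, 4.23, 4.17 and 4.12, and each was within the SD between duplicates (0.09 to 0.14) of its neighbour in this order, while Clk1 lay further than that above Luc7l and Luc7l2. Clk2, Clk4 and Clk3 were lower, at 3.55, 3.16 and 2.52. The means of the time points spanned 1.35 log2 units for Clk1 (2.56-fold), 1.27 for Clk2 and Clk4, and 0.78 for Luc7l3, the narrowest (1.72-fold). The median span was 1.05 over the 5628 genes that averaged 5 log2 CPM or more.

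Clk1, which codes for the best studied kinase of the family, was highest in the undifferentiated cells. It was at 8.0 log2 CPM in course A and 8.05 in course B at 0 h, at 7.38 and 7.33 at 6 h and at 7.02 and 6.96 at 12 h. Both courses then rose again, to 7.60 and 7.40 at 30 h, fell to 7.31 and 7.23 at 36 h, and reached 7.68 and 7.52 at 60 h before a trough of 7.15 and 7.03 at 66 h. At 72 h the courses stood apart, with 7.54 in A and 8.05 in B, and at 96 h they were at 7.84 and 7.58. The lowest level of Clk1 came at 108 h, at 6.73 and 6.62, below every other library of either course. At 120 h it was back at 7.24 and 7.44.

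Clk4 shared most of these turns but not the start. It was low at 0 h, at 5.54 in A and 5.48 in B, and at 6 h both libraries were higher, at 5.79 and 5.74, where Clk1 was lower. From 12 h (5.33 and 5.19) it rose, with a dip at 36 h (5.40 and 5.40), to 6.22 and 6.10 at 60 h. It fell to 5.68 and 5.44 at 66 h, and then stood at 6.17 and 6.49 at 72 h and 6.30 and 6.32 at 78 h. Its lowest libraries were those of 114 h, at 5.09 and 5.04. Over the 21 time points the profiles of Clk1 and Clk4 had a Pearson r of 0.70 in course A and 0.76 in course B, and Clk4 ranked 44 among all genes by likeness to Clk1.

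Clk2 was steadier until late in the course and then dropped for a single time point. Its libraries lay at 6.08 and 6.07 at 102 h, 5.20 and 5.10 at 108 h and 6.09 and 6.03 at 114 h. The 2 libraries of 108 h were the lowest of the 42, and those of 120 h, at 6.40 and 6.44, were among the highest. Clk3, like Clk1, was highest at 0 h and lower at 6 h. It was at 6.18 and 6.22 at 0 h, the highest libraries of the series, and at 5.30 and 5.45 at 6 h. It stayed between 5.30 and 6.03 in every later library, with 5.30 and 5.31 at 108 h. A share of 12.6% of the 100-base stretches of its transcripts is also found in Edc3, which overlaps it on the opposite strand, and the strand setting of the counting is not given in the sources used here.

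**Figure D1:**
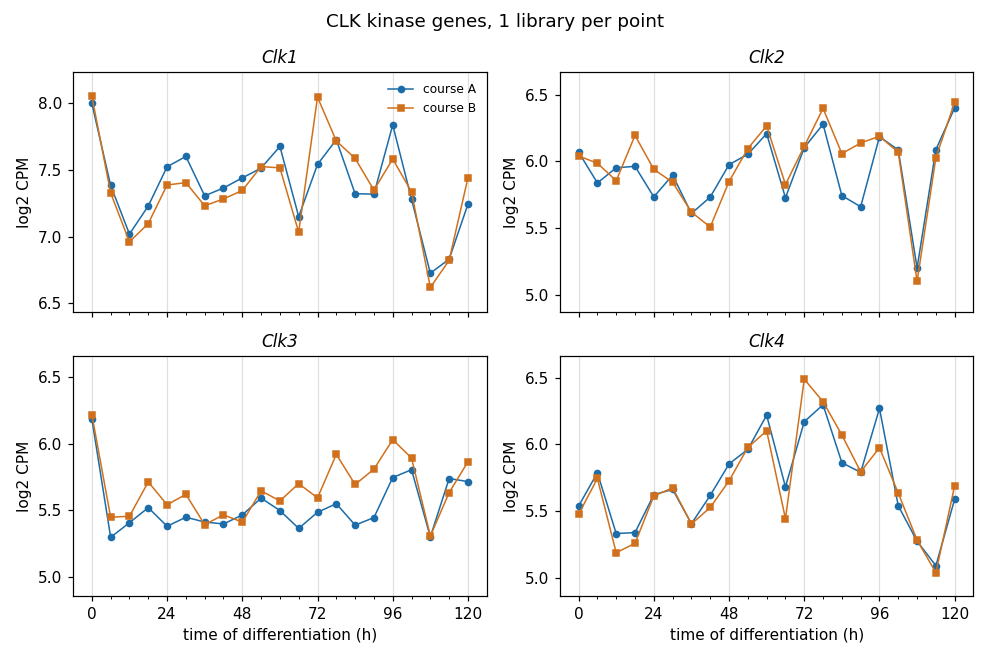
Level of the CLK kinase genes (log2 CPM) against time of differentiation (h), 1 point per library, circles for course A and squares for course B, each panel over 1.8 log2 units. The 2 courses fall together at 108 h in Clk1, Clk2 and Clk3, Clk3 is highest at 0 h, and at 72 h Clk1 and Clk4 are higher in course B.

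Luc7l was higher early and lower late. It was at 6.74 and 6.71 at 0 h, 7.15 and 7.13 at 6 h, and 7.60 and 7.61 at 12 h, its highest libraries, which agreed to an SD of 0.01. It was at 7.33 and 7.44 at 48 h, 7.10 and 7.11 at 72 h and 6.67 and 6.68 at 102 h, and its lowest mean, 6.60 ± 0.15 (SD, n = 2), came at 108 h. Luc7l2 had its maximum earlier, at 8.23 and 8.03 at 6 h, against 7.65 and 7.80 at 0 h and 7.83 and 7.76 at 12 h. Its lowest mean was at 66 h, from 7.34 and 7.16, and the duplicates of 96 h were far apart, at 7.93 and 7.23. Luc7l3 held between 7.70 and 8.49 in 41 of the 42 libraries, and the library of 72 h in course B, at 8.85 against 8.27 in course A, stood above the rest. In Luc7l2, 17.9% of the 100-base stretches are shared with other annotated genes, among them Gm26699 on the opposite strand, so that its level may hold reads of these.

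Fnbp4 and Ewsr1 both had their maximum at 6 h. Fnbp4 was at 7.01 and 6.97 at 0 h, 7.44 and 7.35 at 6 h and 7.04 and 7.08 at 12 h. On the second day the courses differed, with a peak of Fnbp4 at 30 h in A (7.30) and at 24 h in B (7.16). The troughs after these came at 36 h in A (6.75) and 42 h in B (6.66). Smaller peaks in both courses followed at 54 h (7.26 and 7.28), 78 h (7.09 and 7.09) and 108 h (7.08 and 7.17). Troughs of both lay at 66 h (6.59 and 6.51), 90 h (6.54 and 6.62) and 114 h (6.72 and 6.56). Ewsr1 was at 9.20 and 9.02 at 0 h, 9.90 and 9.87 at 6 h and 9.21 and 9.16 at 12 h, so that the 6 h libraries were 1.71-fold above the 0 h mean and separate from all other libraries. After 12 h it kept between 8.63 and 9.34. Pseudogenes (Gm6627 and Gm7962) and the overlapping gene Rhbdd3 share 5.96% of its 100-base stretches.

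**Figure D2:**
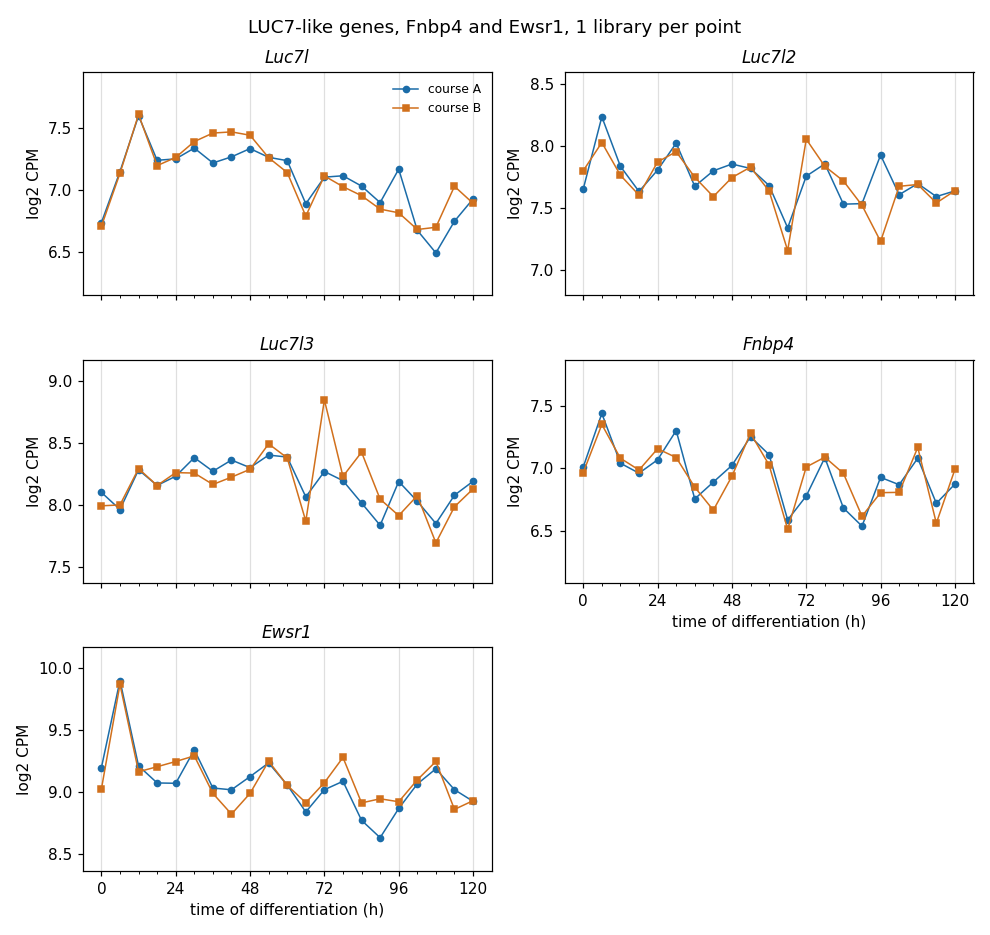
Level of Luc7l, Luc7l2, Luc7l3, Fnbp4 and Ewsr1 (log2 CPM) against time of differentiation (h), 1 point per library, circles for course A and squares for course B, each panel over 1.8 log2 units. Luc7l2, Fnbp4 and Ewsr1 are highest at 6 h and Luc7l at 12 h, and Luc7l3 has 1 high library, at 72 h in course B.

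Periods were read from a periodogram of each course, which divides the variance of a profile into whole numbers of cycles per course, and 5 cycles correspond to 24.2 h. This is the value on which Clk1, Fnbp4 and Luc7l2 were chosen, so it is a description with no test. The strongest period was 24.2 h in both courses for these 3 genes, with 36.1% and 34.4% of the power of Clk1 in courses A and B, 38.5% and 38.7% of that of Luc7l2 and 46.2% and 51.1% of that of Fnbp4. Over all genes, 45, or 0.315%, had this strongest period in both courses, and the median share of power at 5 cycles was 2.70% and 2.71%. Ewsr1 lay just outside: 24.2 h was its strongest period in course B, with 39.7%, but second in course A, with 31.1% against 37.5% for a single cycle over the course. Clk1, the member with the least 5-cycle power inside the rule, stood at 36.1% against 17.9% for its second period in course A. In course B the margin was narrower, at 34.4% against 23.7%.

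The name of daily cycling genes thus rests on 3 of the 9 members by this measure, and on Ewsr1 too under 5 of the 8 alternatives below. Ewsr1 had itself been named as cycling from these data, so this is no independent support. Clk4, Luc7l and Luc7l3 had their strongest period at 121 h, a slow drift, in both courses, with 61.6% and 61.5%, 57.3% and 78.2%, and 72.8% and 45.4% of the power. For Clk4, 24.2 h came second in both courses, at 16.6% and 19.7%. Clk2 had its strongest period at 20.2 h in A and 60.5 h in B, and Clk3 at 20.2 h in A and 121 h in B. Luc7l had 0.60% and 1.14% of its power at 5 cycles, less than 84.8% and 72.9% of all genes. The count of 3 depended on interpolation, trends and scaling. With cubic spline interpolation, or with the 21 measured points alone, Ewsr1 joined and the count was 4 (0.630% and 0.532% of all genes). After a straight line was removed from each course it was 5, with Ewsr1 and Clk3, beside 0.986% of all genes. After a quadratic trend it was 6, with Clk4 as well, but the share of all genes rose to 2.8%. Quantile normalization left it at 3, with Ewsr1 in place of Clk1 (0.315% of all genes). It was 1 (Clk1) when the medians of the libraries were made equal (0.308%). From 24 h on it was 2 (0.224% of all genes), since Clk1 had 97.0 h in course B. It was also 2 without 0 h (0.140% of all genes), an alternative chosen after the data were seen. There the strongest period of Clk1 became 115 h in both courses. Fnbp4 and Luc7l2 kept theirs in both of these.

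**Figure D3:**
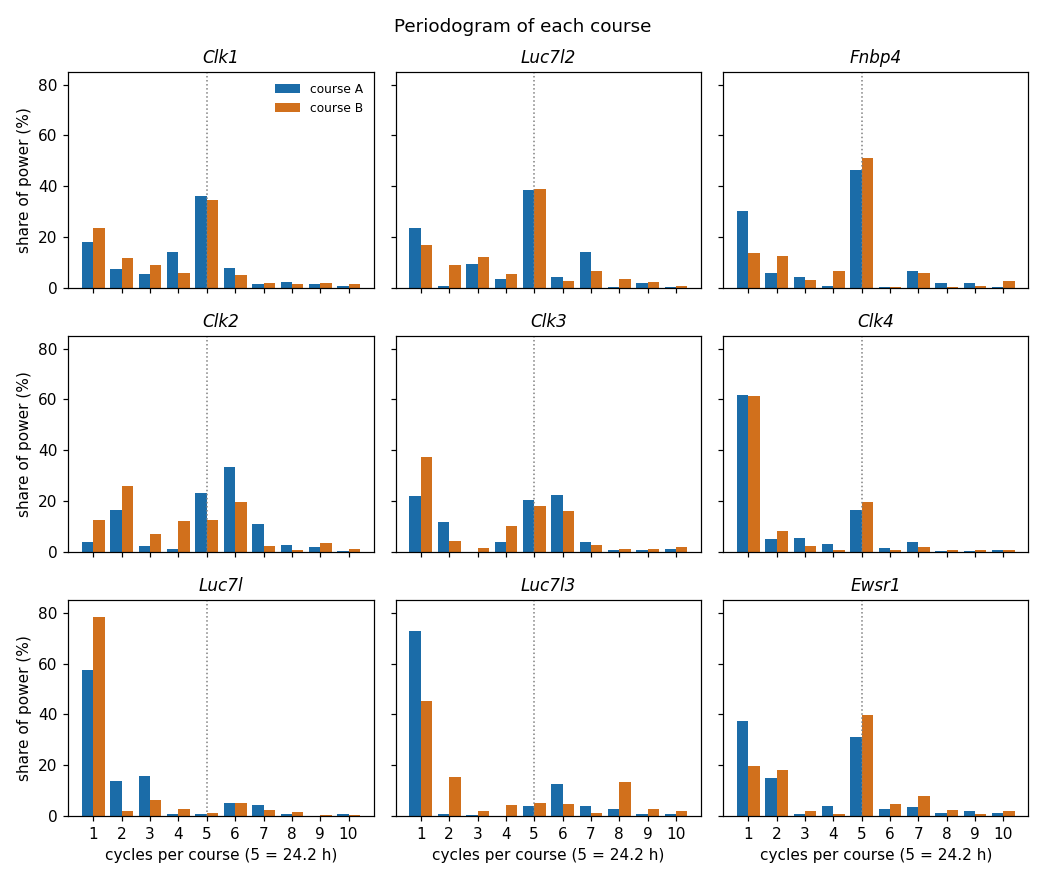
Share of the power of each profile (%) by number of cycles per course, course A and course B side by side, with a dotted line at 5 cycles (24.2 h). Bars at 5 cycles are tallest in both courses for Clk1, Luc7l2 and Fnbp4, and the bars of Clk4, Luc7l and Luc7l3 are tallest at 1 cycle.

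The peak of a fitted 24 h cosine fell at like hours in both courses, and it differed between members. Clk1 peaked at 2.25 h and 2.18 h after a multiple of 24 h, with an amplitude of 0.26 ± 0.07 and 0.31 ± 0.09 log2 units (± SE of the fit, 21 libraries per course), or 1.44-fold and 1.53-fold from trough to peak. Clk4 had an amplitude of 0.24 and 0.29 with a peak at 3.21 h and 3.75 h. Luc7l2 peaked at 5.0 h and 5.91 h, Fnbp4 at 6.04 h and 6.40 h and Ewsr1 at 6.64 h and 6.73 h, with amplitudes of 0.16 and 0.18, 0.21 and 0.22, and 0.19 and 0.19. Luc7l had an amplitude of 0.03 and 0.05, no larger than its SE of 0.07 and 0.07, so that its peak hour could not be read. The median amplitude of all genes was 0.12 and 0.13, and 0.09 in both courses over those that averaged 5 log2 CPM or more. Clk1, Luc7l2, Fnbp4 and Ewsr1 were chosen on a daily pattern of these same libraries. Larger amplitudes than these medians follow from that choice and are a description with no test. Of all genes, 70.1% peaked within 3 h of each other in the 2 courses, so that agreement of the peak hour is common here.

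By day, the highest of the 4 measures of Ewsr1 came 6 h after the opening of the day in 8 of 10 days (5 in each course), and that of Fnbp4 in 7 of 10. For Luc7l2 and Clk3 it was 6 of 10, and for Clk1 the opening measure itself was highest on 5 of 10 days. For Clk1, Luc7l2, Fnbp4 and Ewsr1 these counts restate the pattern on which they were chosen, so they are a description with no test. Days of a course are not replicates, and the share over all genes was not counted. Rbm3, which codes for a cold-induced RNA binding protein and stood on the list of circadian clock genes, was the 1 gene of all the lists outside the members with 24.2 h as the strongest period in both courses, at 33.9% and 29.2%.

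The step from 0 h to 6 h, the first after induction, was tested for the 5 members that were not chosen on their daily pattern, with limma over all 14296 genes and an adjusted p under 0.0001 as the threshold. Of these 5, 1 passed. Clk3 fell to 0.563 of its 0 h level, a log2 change of -0.83 ± 0.13 (SE) with an adjusted p of 6.0e-06, and it was lower by 0.89 in course A and by 0.77 in course B. In this step 11.8% of all genes rose and 14.5% fell. Luc7l was higher at 6 h by 0.42 (SE 0.10, adjusted p = 0.00097) and Clk4 by 0.26 (SE 0.10, adjusted p = 0.033), each the same way in both courses and short of the threshold. Clk2 was at -0.14 and Luc7l3 at -0.07. The members chosen on their pattern are given without a test, with changes of -0.67 for Clk1, 0.40 for Luc7l2, 0.41 for Fnbp4 and 0.77 for Ewsr1, and Ewsr1 was lower again by 0.70 at 12 h. The call of Clk3 was lost without the 0 h library of course A or of course B or the 6 h library of course A (changes of -0.85, -0.81 and -0.75). With the medians of the libraries made equal, Luc7l passed as well (0.54), and 55.8% of the calls over all genes were higher in place of 45.0%.

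Most of the genes around splicing that passed the test in this step rose. Among 13 SR proteins and TRA2 genes, the substrates of the CLK kinases and their relatives, 7 rose and 0 fell, with a median change of 0.68 against -0.05 for all genes. Srsf2 rose by 1.48, Tra2b by 1.40 and Srsf3 by 1.30. Of 10 measured kinases related to the CLKs, from the SRPK, DYRK and HIPK families, 3 rose, Hipk3 by 1.63, Dyrk3 by 1.18 and Dyrk1a by 1.15, and 1 fell, Srpk2 by 0.95. Of the whole table, 11.8% of genes rose and 14.5% fell in this step.

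Of the 16 U1 proteins and partners, the group nearest to the LUC7-like genes, 0 rose and 1 fell, Prpf40b by 1.83. Tia1 was at -0.75 (adjusted p = 0.00022) and Snrpb at 0.63 (adjusted p = 0.00088), short of the threshold. Taf15, which codes for a relative of EWSR1, rose by 0.81 (adjusted p = 2.2e-05). Of 6 heat shock genes 4 rose, among them Hspa1a by 1.40, Hspa8 by 1.28 and Hsph1 by 1.11, and 0 fell. Among 19 clock genes 2 rose and 4 fell, with Arntl higher by 2.12 and Per3 and Bhlhe41 lower by 2.28 and 2.24. Rbm3 was higher by 1.24. Of 5 RNAs kept in the nucleus 1 fell, Meg3 by 0.91, while Neat1 and Rian, at -0.63 and -0.61, did not pass.

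Late in the course, by limma, Clk2 fell by 0.93 from 102 h to 108 h (SE 0.12, adjusted p = 3.2e-06), to 0.526 of its 102 h level. It rose by 0.91 from 108 h to 114 h (SE 0.12, adjusted p = 6.1e-06). In the step to 108 h 0.672% of all genes fell and 1.37% rose, and in the next step 0.986% rose. Of the 5 members tested, Clk2 was the 1 that passed. Clk3 was at -0.54 (adjusted p = 0.0046) and Clk4 at -0.31 (adjusted p = 0.040), short of the threshold, and Clk1, not tested, at -0.64. The changes of the LUC7-like genes were smaller, with -0.08 for Luc7l, 0.05 for Luc7l2 and -0.28 for Luc7l3. Fnbp4 and Ewsr1 were at 0.29 and 0.13. Of the 13 SR proteins and TRA2 genes, 0 passed by limma, with a median change of 0.24, and 6 were higher at 108 h with an unadjusted p under 0.05, as were 14.3% of all genes. The fall of Clk2 was no longer called without a 102 h library of either course or the 108 h library of course B, with changes between -0.94 and -0.88. Its rise to 114 h was no longer called without any of the 4 libraries compared, with changes between 0.86 and 0.96.

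Over all 20 steps, 3 of the 100 steps of the 5 tested members passed, those of Clk3 from 0 h to 6 h and of Clk2 around 108 h, beside 1.77% of all pairs of a gene and a step. Without the 108 h library of course B, 1 of the 100 passed. From 60 h to 66 h, Clk2, Clk4, Luc7l and Luc7l3 were lower in both courses and Clk3 was not, beside 37.1% of all genes. Clk1, Luc7l2, Fnbp4 and Ewsr1 were lower in both courses too, but they were chosen on a daily pattern of these same libraries. They are therefore not set against the share of all genes. The changes of these 8 members ran from -0.60 for Clk4 and -0.52 for Fnbp4 to -0.18 for Ewsr1. Of the 5 tested, 0 passed by limma, where 0.028% of all genes fell, and 4 were lower at an unadjusted p under 0.05, against 10.6% of all genes.

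**Figure D4:**
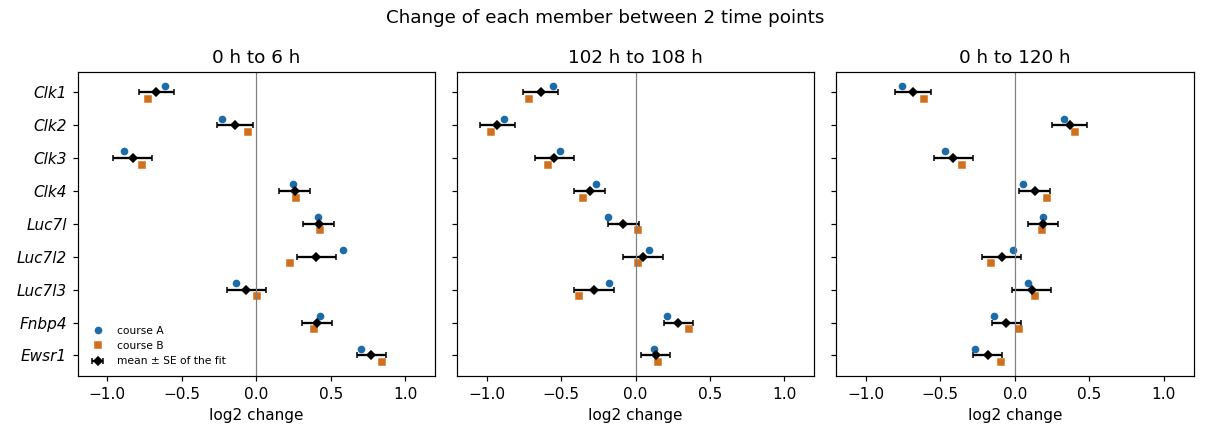
Log2 change of each member from 0 h to 6 h, from 102 h to 108 h and from 0 h to 120 h, with circles for course A, squares for course B and diamonds with bars for the mean ± SE of the fit. At 6 h Clk1 and Clk3 lie below 0 and Luc7l, Luc7l2, Fnbp4 and Ewsr1 above it, and at 108 h Clk2 lies furthest below 0.

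Time points 24 h apart were compared to follow the members from day to day. The choice of Clk1, Fnbp4 and Luc7l2 on a 24.2 h period favours like values at such points, so these 3 and Ewsr1 are given as values and the other 5 members were tested. From 0 h to 24 h, Clk3 fell by 0.74 (SE 0.13, adjusted p = 3.3e-05) and Luc7l rose by 0.53 (SE 0.10, adjusted p = 7.9e-05), where 12.8% of all genes fell and 9.9% rose. The call of Clk3 was lost when any of the 4 libraries it compares was left out, with changes of -0.82 to -0.66. That of Luc7l was lost in 28 of the 42 fits that leave out 1 library, in all 4 that leave out a library it compares (0.52 to 0.55) and in 24 others. The values not tested were -0.57 for Clk1, 0.11 for Luc7l2, 0.12 for Fnbp4 and 0.05 for Ewsr1. The calls turned on the scaling, since Clk3 (-0.60) did not pass with the medians of the libraries made equal and Luc7l (0.33) did not pass after quantile normalization, which also put Clk1 at -0.89. Making the medians equal moved the median change of all genes from -0.04 to 0.10 (from -0.05 to 0.07 between 0 h and 6 h) and the share of higher genes among the calls from 43.6% to 58.4%.

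On the later days 0 of the 5 members tested passed by limma, where 8.97% of all genes passed from 24 h to 48 h, 9.38% from 48 h to 72 h, 3.39% from 72 h to 96 h and 1.94% from 96 h to 120 h. At an unadjusted p under 0.05, 0 of the 5 passed from 24 h to 48 h (38.7% of all genes), 2 from 48 h to 72 h (48.8%), 2 from 72 h to 96 h (40.2%) and 1 from 96 h to 120 h (31.3%). With the medians made equal, the share of higher genes among the calls was 48.8% in place of 59.7% from 48 h to 72 h and 54.3% in place of 70.5% from 72 h to 96 h. Clk4 came nearest to a call, higher by 0.54 from 48 h to 72 h (adjusted p = 0.00015) and lower by 0.48 from 96 h to 120 h (adjusted p = 0.0015). From 48 h to 72 h its change was 0.32 in course A and 0.76 in course B. It was called there after quantile normalization (0.63), without the 72 h library of course A (0.70) and without the 96 h library of either course. Luc7l3 was lower by 0.51 from 72 h to 96 h (adjusted p = 0.0054), by 0.08 in course A and 0.93 in course B, where the 72 h library of course B is the high one, and it was called without the 72 h library of course A (-0.79).

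Between the start and the end of the course, 0 of the 5 members tested passed by limma, where 10.1% of all genes fell and 12.9% rose. Clk3 was at -0.41 and Clk2 at 0.37 (adjusted p = 0.010 for both), the 2 members with an unadjusted p under 0.05, against 56.9% of all genes. Luc7l, Clk4 and Luc7l3 were at 0.19, 0.13 and 0.11. The largest difference was that of Clk1, given without a test because both ends entered the periodogram that chose it. It was lower at 120 h by 0.76 in course A and by 0.61 in course B, a mean change of -0.68 ± 0.12 (SE), and the 2 libraries of 120 h lay below those of 0 h. Luc7l2, Fnbp4 and Ewsr1 were at -0.09, -0.06 and -0.18.

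Within a library, the ratio of related genes cancels the scaling, and the closest pairs changed their balance early. Clk1 exceeded Clk4 by 2.52 ± 0.08 log2 units at 0 h (SD, n = 2), or 5.73-fold in CPM, by 1.59 ± 0.01 at 6 h and by 1.41 ± 0.02 at 78 h. The 2 libraries of 0 h, at 2.46 and 2.58, were separate from all 40 later ones. In CPM, Luc7l was below Luc7l2 by 1.0 ± 0.12 at 0 h and 0.99 ± 0.14 at 6 h. At 12 h it was below by 0.20 ± 0.06, where the mean ratio of Luc7l to Luc7l2 was highest. By 108 h the difference was -1.10 ± 0.15. Clk2 was below Clk3 in CPM at 0 h (-0.15 ± 0.04) and 108 h (-0.15 ± 0.08) and above it at the 19 other time points, up to 0.70 ± 0.01 at 60 h. These differences compare CPM without regard to length, so that their changes and not their sizes or signs can be read. They are given with no test because Clk1 and Luc7l2 were chosen on these profiles.

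**Figure D5:**
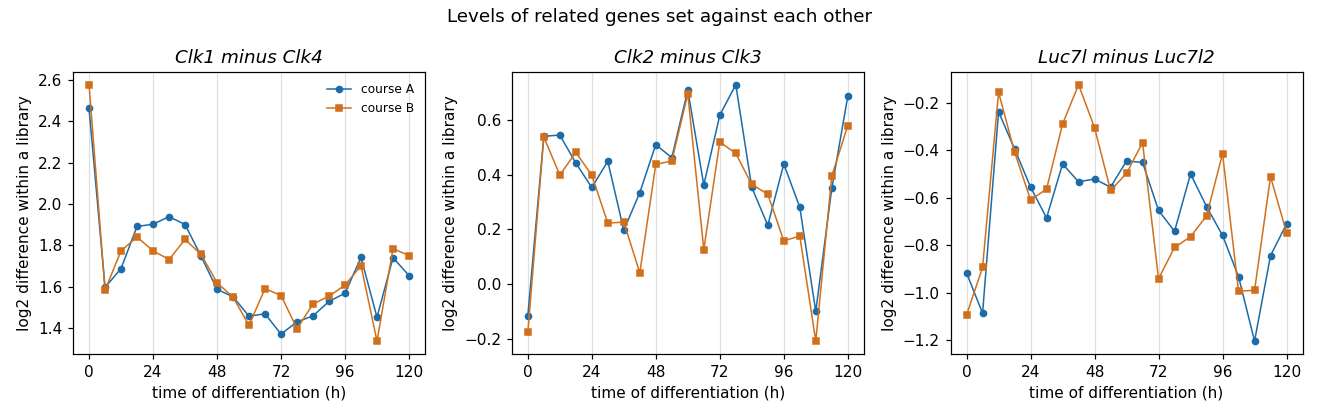
Difference in log2 CPM within each library between Clk1 and Clk4, Clk2 and Clk3, and Luc7l and Luc7l2, against time of differentiation (h), circles for course A and squares for course B. The first falls from 2.52 to 1.59 between 0 h and 6 h and the second is below 0 at 0 h and 108 h. The difference of the LUC7-like pair is highest at 12 h in the mean of the courses. Lengths of the genes are not taken into account.

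The genes most like each member were ranked by the smaller of the Pearson r of course A and course B over 21 time points, a description over points that follow each other in time. For Clk1 they were Ccdc77 (0.89 in A and 0.87 in B), Trmt13 (0.86 and 0.85), 2700097O09Rik (0.83 and 0.83), Arrdc2 (0.84 and 0.82) and Cdc7 (0.81 and 0.82). The gene most like Clk2 was Lrrc45, that most like Clk3 was Kyat1 and that most like Clk4 was Casp2. Hspbap1 came first for Luc7l, Slc25a40 for Luc7l2, Arglu1 for Luc7l3, Paxbp1 for Fnbp4 and Brd9 for Ewsr1, with a smaller r between 0.75 (Luc7l2) and 0.87 (Luc7l). Fnbp4 ranked second of all genes for both Ewsr1 (0.86 and 0.78) and Luc7l2 (0.82 and 0.74). The choice of these genes on a daily pattern of the same libraries favours such likeness, so these ranks are no support for it. Luc7l and Clk3 ran opposite ways, with r of -0.36 and -0.61.

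The courses differed from each other in ways that several members shared. The difference of course A minus course B at each of the 21 time points was correlated over the time points between each of the 36 pairs of members. The choice of Clk1, Fnbp4 and Luc7l2 asked for a like period in both courses of these libraries. The differences are therefore not independent of that choice, and r is a description with no test. The r had a median of 0.31 and ranged from -0.72 for Clk3 and Luc7l to 0.84 for Clk1 and Clk4, with 14 pairs over 0.5. Against all genes, the median r of a member was between -0.01 and 0.06, and 7.56% to 12.9% of genes had an r over 0.5 with it. In a grouping made after these values were seen, Clk1, Clk4, Luc7l2, Luc7l3 and Fnbp4 had r from 0.61 to 0.84 in all 10 of their pairs, and Clk2, Clk3 and Ewsr1 from 0.69 to 0.83 in all 3. Without 72 h and 96 h, an alternative chosen after seeing the data, the ranges were 0.46 to 0.69 and 0.73 to 0.84. The paired libraries differed in depth, most at 30 h with a log2 of A over B of 1.59, and r with the difference in depth was between -0.10 and 0.30. With the difference in the summed level of 5 RNAs kept in the nucleus, r was 0.70 for Luc7l2, 0.55 for Fnbp4 and 0.47 for Clk4, and -0.30 for Clk3. The summed level of these RNAs ranged from 9.08 to 11.3 log2 CPM over the libraries, and its part in the differences between the courses was not tested.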

How the data were processed

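RNA of 42 libraries, 2 per time point, was sequenced with a stranded paired-end poly-A protocol, and all libraries were prepared together. The authors used Trim Galore for trimming, TopHat2 for alignment to mm10 and HTSeq with the GENCODE vM2 genes for counting. The authors then scaled libraries with edgeR, and the deposited values are voom log2 CPM, 1 value per gene and library. Whole reads could be recovered from them within 2.91e-08 of a read, and 3 reads correspond to 0.0571 to 0.316 CPM. The strand setting of the counting is not given in the sources used here.

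Groups were the time points. The deposited log2 values were fitted with limma (3.58.1, R 4.3.3) with a mean per time point, a trended prior and 21 residual degrees of freedom, with Benjamini-Hochberg adjustment over 14296 genes within each contrast and a threshold of 0.0001. Clk1, Fnbp4, Luc7l2 and Ewsr1 are given without a test, since their pattern had chosen them. The planned comparisons 24 h apart and from 0 h to 120 h covered all 9 members, and counts over the 9 stand only among the alternatives. Periodograms used 120 interpolated points per course, and the 24 h cosine a quadratic trend (numpy 2.4.6, scipy 1.17.1, pandas 2.3.3). Figures were drawn with matplotlib 3.10.9 in Python 3.11.15.

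The members and gene lists were chosen with earlier results of these data known. Named were all members, of each list the 3 genes with the largest change from 0 h to 6 h of one sign in both courses, list genes with a 24.2 h period, and the genes most like each member. A listed gene is not reported here. Named outside this rule, after their values were seen, were Snrpb, Neat1 and other list genes whose count is given. The duplicates differed by more than counting error (lowest chi-square per degree of freedom 6.91). P-values measure the spread between the 2 courses of 1 line. Exon lengths and positions are of GENCODE vM21 (14177 of 14296 genes matched). Alternatives were the replicate block, voom weights on the recovered reads, equal library medians, quantile normalization, a filter on genes averaging under 1 log2 CPM, a threshold of 0.05, and leaving out each library. The scripts were tested on simulated data.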

Additional observations from a re-analysis of the deposited data

How the results depend on the processing

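Counts of members 24 h apart and from 0 h to 120 h cover all 9 as planned, those chosen on their pattern included, and are no test of these. Of 576 values of 64 single member changes under the alternatives, 551 kept their side of the threshold, 19 lost a call and 6 gained one. In 0 values did the sign turn where either fit called the change. A turn of sign that neither fit called was counted among the 551. The 1 member from 0 h to 120 h is Clk1. With library medians made equal, 2 members were called from 0 h to 6 h in place of 1, and 1 in place of 2 in the 24-hourly comparisons. At an adjusted p under 0.05 these counts were 3 and 5, with 3 members from 0 h to 120 h in place of 1. It also gave 19 member steps in place of 3, and 44 of the 71 pathway list genes from 0 h to 6 h in place of 24. Shares of all genes at this looser threshold are not given here, so its counts cannot be set against them. Leaving out 1 library gave 0 to 1 members from 0 h to 6 h, 0 to 5 in the 24-hourly comparisons (5 without 72 h and 4 without 96 h of course A, 0 without a 0 h or 24 h library), 0 to 1 from 0 h to 120 h, 1 to 4 member steps (1 without 108 h of course B) and 17 to 28 list genes. Here the lone library of a time point is assumed to vary like the other time points. The number of members with a 24.2 h period in both courses was 5 after a straight line and 6 after a quadratic trend was removed, and 1 with equal medians, against 3. The shares of all genes were 0.986%, 2.8% and 0.308%, against 0.315%. The median amplitude over members and courses was 0.185, and 0.155 from 24 h on. The cause of these shifts was not tested.

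Libraries of courses A and B share only a letter, and the residuals of same-letter libraries had a mean correlation of 0.0795, with 47.1% of 210 pairs over 0.1. With the replicate block, the counts of members called were 1 from 0 h to 6 h, 2 in the 24-hourly comparisons and 1 from 0 h to 120 h, with 3 member steps, as without it, and 29 list genes in place of 24. The 2 libraries per time point limit these comparisons.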
